A study of Mus musculus with 6 samples.

Results

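Sox genes encode transcription factors that bind DNA through a high-mobility-group (HMG) box, and 9 of them are described here in osteocyte-like cells: Sox4, Sox5, Sox6, Sox8, Sox9, Sox11, Sox12, Sox13 and Sox18. They were taken by gene symbol from a table of 53797 genes, in which 20 genes of the Sox family are listed, and all 9 were found. Rows were matched by name alone, with no threshold on their levels. MLO-Y4, a murine line established from mice that carry the SV40 large T antigen under the osteocalcin promoter, was used throughout. In the LIPUS group, cells received low-intensity pulsed ultrasound for 20 min at 1.5 MHz and 30 mW/cm2. In the Control group, cells lay in wells of the same plate as the LIPUS cells, over transducers that were left unplugged. RNA of 3 libraries per group was sequenced, and per the methods it was extracted once 30 min had passed after LIPUS. The line stands for osteocytes only in part, as the marker genes given further on show, and the cultures of a single line do not vary as animals do. The study describes a Control library that stood apart from the rest of its group. The pooled Control values used here include that library and could not be computed without it. As a possible reason, the paper names stray LIPUS reaching Control cells on the shared plate, which was not tested here.

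Levels are given as FPKM, the number of fragments scaled to transcript length and to the mapped fragments of a library, which allows levels of genes of different length to be set side by side. The authors deposited a single FPKM per group, pooled over its 3 libraries. The spread between cultures therefore cannot be read from these values for any gene. No difference below was tested here, and every ratio compares 2 pooled values. The authors' own test columns were left unused. Ratios are log2 values of LIPUS over Control with 0.1 FPKM added to both, so that a positive value is higher with LIPUS. A gene passed the filter on low values with an FPKM of at least 1 in at least 1 group, and was counted as higher or lower from a difference of 1.5 fold. Of the 11999 genes that passed, 8.98% were higher and 9.26% were lower, and their median log2 ratio was -0.00, with quartiles of -0.23 and 0.22. Those shares are the background against which the counts below have to be read.

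The family is divided into groups by the likeness of the HMG box. Sox8, Sox9 and Sox10 form SoxE, in which Sox9 is the master factor of cartilage formation. Sox5, Sox6 and Sox13 form SoxD. They carry no transactivation domain of their own, and Sox5 and Sox6 work beside Sox9 on cartilage matrix genes. Sox4, Sox11 and Sox12 form SoxC, activators known from progenitor cells of neural and mesenchymal tissues, and Sox7, Sox17 and Sox18 form SoxF, known from endothelial cells. In the skeleton, Sox9 is active in mesenchymal progenitors and chondrocytes and restrains Runx2, the factor that sets osteoblast fate.

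The start of the HMG box shows how near the 3 most abundant members and the SoxE partners of Sox9 are to each other. Each sequence below is a coding stretch of 75 bases, or 25 codons, read 5′ to 3′ on the strand of the gene from GENCODE M21 transcripts of the GRCm38 genome. In the line of Sox9, capitals mark the 38 bases that are the same in all 7 genes compared, which also included Sox13 and Sox4. In the other lines, capitals mark bases that are the same as in Sox9.
Sox9: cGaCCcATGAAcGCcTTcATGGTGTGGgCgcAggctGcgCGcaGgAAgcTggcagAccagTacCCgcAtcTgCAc
Sox8: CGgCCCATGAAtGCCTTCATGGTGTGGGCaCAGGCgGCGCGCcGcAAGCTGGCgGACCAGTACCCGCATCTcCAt
Sox10: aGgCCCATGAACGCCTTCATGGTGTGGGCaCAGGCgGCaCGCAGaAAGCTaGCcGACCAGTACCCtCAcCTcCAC
Sox5: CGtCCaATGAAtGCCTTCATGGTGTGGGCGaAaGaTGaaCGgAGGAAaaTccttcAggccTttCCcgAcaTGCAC
Sox12: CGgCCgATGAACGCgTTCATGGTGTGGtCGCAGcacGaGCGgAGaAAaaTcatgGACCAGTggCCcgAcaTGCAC

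The Sox9 stretch lies at chr11:112782903-112782977 on the plus strand, and the others on minus strands at chr17:25570148-25570222 for Sox8, chr15:79163327-79163401 for Sox10, chr6:143841199-143841273 for Sox5 and chr2:152397501-152397575 for Sox12. Sox8 shared 66 of the 75 bases with Sox9 and Sox10 shared 64, and in both genes all 25 codons encode the same residue as in Sox9. Sox5 shared 49 bases and 15 residues, and Sox12 shared 53 bases and 17 residues. Over whole transcripts, the longest identical stretch between Sox9 and any other Sox gene was 44 bases, with Sox10. It was 23 bases for Sox5 and 33 bases for Sox12, the latter with Sox4. All of these are shorter than 1 sequenced read of 100 bases.

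Of the 9 genes, 5 had an FPKM above 0 and 4 passed the filter on low values. Sox9, Sox5 and Sox12 made up nearly all Sox RNA of these cells, and Sox9 was the single member past 1.5 fold. That call rests on the scaling: with both groups scaled to the same FPKM total, 0 members were higher, Sox9 being at 0.56, and with no pseudocount 1 member, Sox13, was lower at -0.59. Of the 4 that passed, 1 was higher with LIPUS, beside 8.98% of all genes, and 0 were lower, beside 9.26%. Their median log2 ratio was 0.05, against -0.00 for all genes that passed. Sox13 passed only through the Control group, in which it was the higher. The authors' program gave the status of a tested gene to 3 members, Sox9, Sox5 and Sox12, and left the other 6 untested.

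**Figure D1:**
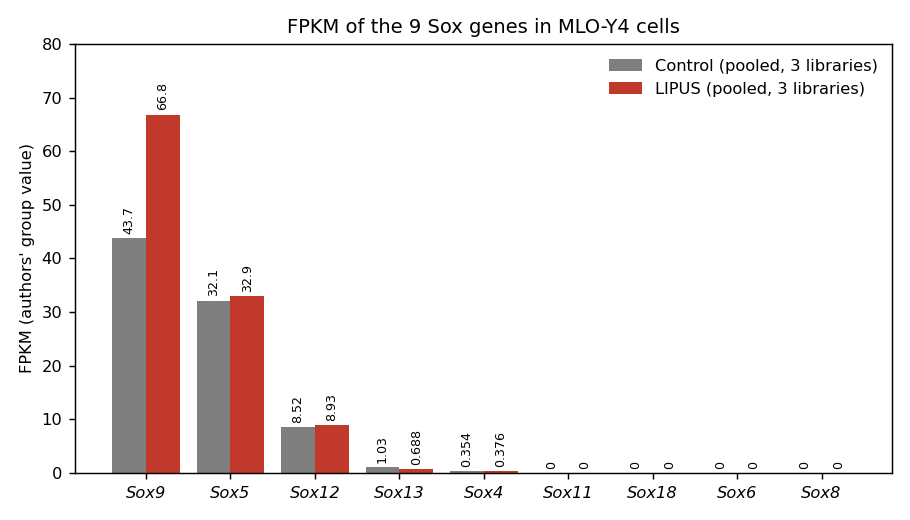
Pooled FPKM of the 9 Sox genes on a linear axis, with 1 bar per group (grey, Control; red, LIPUS), each from 3 libraries and without error bars because values of single libraries were not used here. Sox9 stood at 43.7 FPKM in Control and 66.8 FPKM with LIPUS, Sox5 and Sox12 had bars of nearly equal height in both groups, and Sox6, Sox8, Sox11 and Sox18 were listed at 0.

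Sox9 (ENSMUSG00000000567) lies on chromosome 11 at chr11:112782224-112787760, on the plus strand, with 3 exons. Its pooled level was 43.7 FPKM in the Control group and 66.8 FPKM in the LIPUS group. This is a 1.53-fold higher level, or 0.61 on the log2 scale, barely past the threshold of 1.5 fold. In bulk RNA of this kind, a larger number of cells with Sox9 and more Sox9 RNA per cell cannot be told apart. In Control, 81.3% of the genes that passed the filter had a lower level than Sox9, and 87.8% had a lower level in LIPUS. Its rank among all listed genes moved from 2240 to 1464. A ratio as high as that of Sox9 or higher was found for 1030 genes, which is 8.58% of those that passed.

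Ratios of low FPKM scatter more, so Sox9 was also set beside genes of like level. Among the 6004 genes whose higher FPKM lay from 10 to below 100, 257 (4.28%) were at least 1.5 fold higher with LIPUS, and 237 (3.95%) had a ratio of at least that of Sox9. The quartiles of log2 ratio in this class were -0.17 and 0.18. Among the 8145 genes that the authors' program tested, 348 (4.27%) had such a ratio. These shares place Sox9 in the upper range of genes with its level and say nothing of the spread between cultures.

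**Figure D2:**
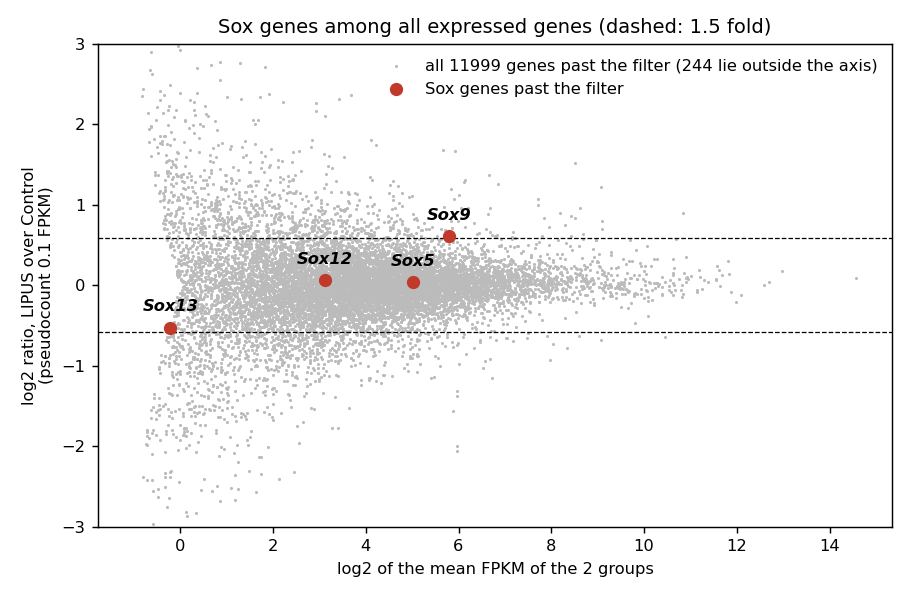
Log2 ratio of LIPUS over Control (0.1 FPKM added) against log2 of the mean FPKM of both groups for the 11999 genes with an FPKM of at least 1 in at least 1 group (grey), with the 4 Sox genes that passed marked in red and dashed lines at 1.5 fold. Sox9 sits at 0.61 on the upper dashed line, Sox5 and Sox12 lie near 0, Sox13 at -0.52 lies among low genes that scatter widely, and 244 genes beyond a log2 ratio of 3 in either direction are not drawn.

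The other SoxE genes were not seen beside Sox9. Sox8 (chr17:25565892-25570686, minus strand) and Sox10, which is known from Schwann cells and melanocytes, were listed at 0 in both groups. SoxE RNA was therefore Sox9 RNA alone in these values. An exact 0 in this table can also come from a level that was not estimated: 222 genes that passed the filter were listed at 0 in 1 group, 20 of them with at least 10 FPKM in the other group. For this reason such genes are called listed at 0 here and no fold is printed for them, although with 0.1 FPKM added they enter the counts and medians of the genes that passed. None of the 75 ribosomal protein genes, which every cell uses, was at 0 in both groups.

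Among the SoxD genes, Sox5 (ENSMUSG00000041540) was the abundant one. It spans 953553 bases at chr6:143828425-144781977 on the minus strand. Its level was 32.1 FPKM in Control and 32.9 FPKM with LIPUS, a log2 ratio of 0.04. The sign of so small a difference is not stable, since it became -0.01 once both groups were scaled to the same FPKM total. Sox5 stood above 75.5% of the genes that passed in LIPUS. Sox13 (ENSMUSG00000070643), a factor also known from a subset of T cells, lies at chr1:133382303-133424377 on the minus strand. It had 1.03 FPKM in Control and 0.688 FPKM with LIPUS, a log2 ratio of -0.52, at a level at which many genes differ as much: of the 4967 genes whose higher FPKM lay from 1 to below 10, 16.7% were at least 1.5 fold lower. Sox6 (chr7:115470872-116038796, minus strand), the partner of Sox5 in cartilage, was listed at 0 in both groups. Summed over the SoxD genes, the level was 33.1 FPKM in Control and 33.6 FPKM with LIPUS.

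Among the SoxC genes, Sox12 (ENSMUSG00000051817), a gene of 1 exon at chr2:152393611-152398063 on the minus strand, had 8.52 FPKM in Control and 8.93 FPKM with LIPUS. The log2 ratio was 0.07, and 41.6% of the genes that passed lay below Sox12 in LIPUS. Sox4 (chr13:28948919-28953713, minus strand), which is active in osteoblast progenitors, stayed below the filter with 0.354 FPKM in Control and 0.376 FPKM with LIPUS. Sox11 (chr12:27334264-27342574, minus strand), an activator known from neural and skeletal progenitors, was listed at 0 in both groups. SoxC RNA was thus mostly Sox12, with 8.87 FPKM in sum in Control and 9.30 FPKM with LIPUS. Sox18 (chr2:181669836-181671640, minus strand), a regulator of blood and lymphatic vessels, was listed at 0 in both groups, as were the other SoxF genes, Sox7 and Sox17.

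Of the 11 Sox genes outside the 9, none passed the filter. Sox15 and Sox30 were listed at 0 in Control and had 0.313 and 0.229 FPKM with LIPUS, and the remaining 9 were listed at 0 in both groups. The summed FPKM of all 20 Sox genes was 85.8 in Control and 110.3 with LIPUS. Sox9 held 51.0% of that sum in Control and 60.6% with LIPUS, SoxD genes held 38.6% and 30.5%, and SoxC genes held 10.3% and 8.43%. The order of levels, Sox9 above Sox5 above Sox12 above Sox13 above Sox4, was the same in both groups. Whether neighbours in that order differ beyond the spread of cultures could not be computed. The quotient of Sox9 over Sox5 was 1.36 in Control and 2.03 with LIPUS, and that of Sox9 over Sox12 was 5.13 and 7.49. The quotient of Sox5 over Sox12 was 3.77 and 3.69.

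Sox9 acts by binding regulatory regions of cartilage genes, so 23 genes known to be bound or activated by it were examined. Their summed level was nearly equal in both groups, at 109.6 FPKM in Control and 109.7 FPKM with LIPUS. Most of that sum came from Wwp2 and Col11a1, so it says little of the other genes. The median log2 ratio of the 9 that passed the filter was 0.02, and it was 0.20 at a minimum of 10 FPKM. RNA was taken 30 min after LIPUS, and no later time was sequenced. Of these 9, 2 were higher, 0 were lower and 7 were neither, beside the background of 8.98% higher and 9.26% lower. Both higher genes were low, and the authors' program left both untested. Col11a2 passed the filter only through LIPUS, in which it was the higher. With a pseudocount of 1 FPKM it was no longer past 1.5 fold and 1 gene was left as higher. Matn4, a matrix adaptor protein, had 1.38 FPKM in Control and 2.83 FPKM with LIPUS (log2 ratio 0.98), and Col11a2, a chain of the cartilage collagen XI, had 0.579 and 1.14 FPKM (0.87). The other 7 had log2 ratios from -0.37 to 0.44. Wwp2, whose gene hosts a microRNA of cartilage, was the most abundant in Control, at 40.1 FPKM, and lay just below Col11a1 with LIPUS, at 33.7 FPKM (-0.25).

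The collagens and proteoglycans that define cartilage were mostly low or not seen. Col2a1, the chain of the main cartilage collagen, had 8.76 FPKM in Control and 7.51 FPKM with LIPUS (-0.22). Col11a1, the partner chain of Col11a2, had 34.0 and 34.5 FPKM (0.02), and Hapln1, a link protein of proteoglycan, had 9.69 and 12.6 FPKM (0.37). Acan, which encodes the main proteoglycan of cartilage, was listed at 0 in both groups, as were Col9a1, Col9a2, Matn1, Cnmd and 5 others of the 23.

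Proteins that work with Sox9 were read from a list that does not include Sox5 and Sox6. Of its 11 cofactors and modifiers, 11 were above 0 and 10 passed the filter, with 1 higher, 0 lower and a median log2 ratio of -0.03. Over all genes that passed, 8.98% were higher and 9.26% were lower, so 1 of 10 is near that share. The higher one was Arid5a, a partner of Sox9 in cartilage transcription that also binds RNA, with 5.40 FPKM in Control and 9.68 FPKM with LIPUS (0.83), a level that a minimum of 10 FPKM leaves out. The other 9 had log2 ratios from -0.52 to 0.33. The lower end of that range was Ep300, a histone acetyltransferase, with 15.7 FPKM in Control and 10.9 FPKM with LIPUS. Smad3, a transducer of TGF-β signals, was the most abundant of the 11 at 58.2 and 54.0 FPKM.

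Upstream of Sox9, 11 genes of factors known to act on its transcription were examined, of which 10 passed the filter. Of these, 1 was higher, 0 were lower and 9 were neither, with a median log2 ratio of 0.17. That 1 of 10 lies near the 8.98% of all genes that were higher, while 9.26% of all genes were lower. Hes1, a repressor that is switched on by Notch signalling, had 10.7 FPKM in Control and 19.0 FPKM with LIPUS (0.82). The other 9 lay from -0.47 to 0.29. Fgf2, a growth factor of the fibroblast growth factor family, was at the lower end with 18.5 and 13.3 FPKM. Ctnnb1, which encodes β-catenin of the Wnt pathway, was the most abundant at 120.0 and 130.1 FPKM, and Bmp2, a bone morphogenetic protein, was listed at 0 in both groups.

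Genes of hypertrophic chondrocytes and osteoblasts, which Sox9 restrains in cartilage, lay on both sides of 1.5 fold. Of 13 such genes, 10 passed the filter, and 2 were higher, 3 were lower and 5 were neither, with a median log2 ratio of -0.20. Over all genes that passed, 8.98% were higher and 9.26% were lower. The lower genes were Runx2, with 24.4 FPKM in Control and 14.8 FPKM with LIPUS (-0.72), Sp7, the osteoblast factor downstream of Runx2, with 5.86 and 3.75 FPKM (-0.63), and Alpl, the alkaline phosphatase of mineralizing cells, with 293.0 and 189.7 FPKM (-0.63). The higher genes were Mmp13, a collagenase, with 245.5 FPKM in Control and 446.5 FPKM with LIPUS (0.86), and Bglap. Bglap encodes osteocalcin, was listed at 0 in Control and had 1.58 FPKM with LIPUS, and belongs to a family of near-identical copies between which reads may have been split. It passed the filter only through LIPUS, and with no pseudocount, which leaves it out, 1 gene was higher, 3 were lower and the median was -0.28. The authors' program left Sp7 and Bglap untested. Sp7 was no longer past 1.5 fold with a pseudocount of 1 FPKM, which left 2 genes lower. At the level of Runx2, 10 to below 100 FPKM, 4.25% of genes were lower, and at that of Sp7, 1 to below 10 FPKM, 16.7%. From 100 FPKM up, the level of Alpl and Mmp13, 2.53% were lower and 3.4% were higher. The other 5 had log2 ratios from -0.29 to 0.31, and Spp1, which encodes osteopontin, was the most abundant at 4514 and 4158 FPKM.

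**Figure D3:**
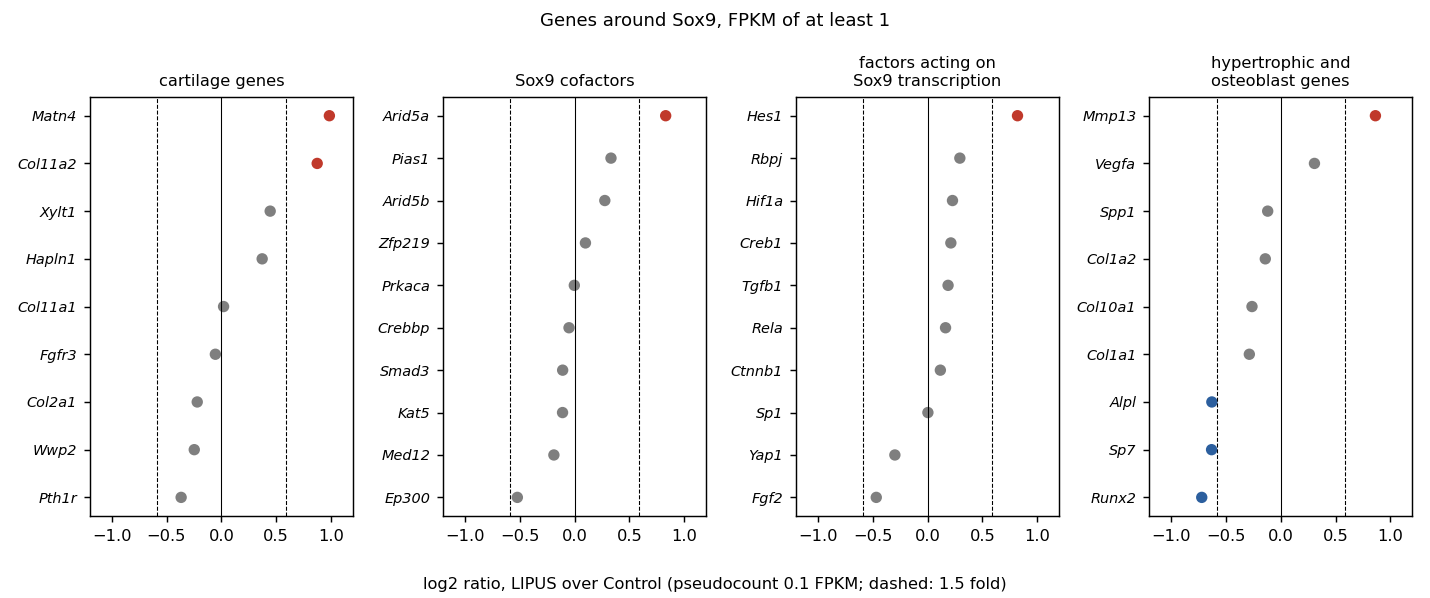
Log2 ratio of LIPUS over Control for genes that passed the filter on low values, in 4 lists around Sox9, with dashed lines at 1.5 fold (red, higher; blue, lower; grey, neither) and without Bglap, which was listed at 0 in Control. Matn4, Col11a2, Arid5a, Hes1 and Mmp13 lie to the right of the dashed lines and Alpl, Sp7 and Runx2 to the left, while the other genes lie between them.

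**Figure D4:**
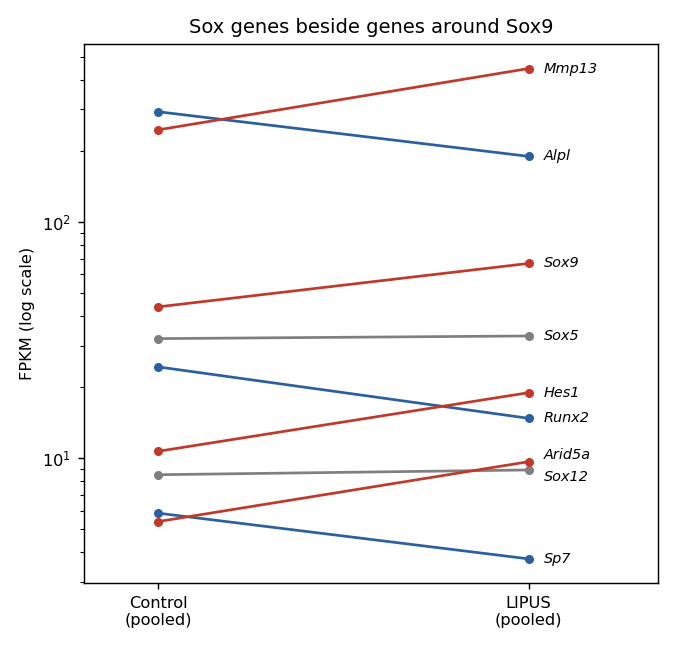
Pooled FPKM in Control and LIPUS on a log axis for the 3 abundant Sox genes and for genes around Sox9 past 1.5 fold. Each gene has 1 line (red for higher, blue for lower, grey for neither). Matn4, Col11a2 and Bglap, which were also past 1.5 fold, are not drawn. Sox9 lies above Sox5 in both groups and draws away from it with LIPUS, and Runx2, at 24.4 and 14.8 FPKM, lies below Sox5 in both groups.

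Few targets of the other groups could be read. Of 3 genes known as SoxC targets, Tead2, a partner of YAP on DNA, had 2.48 FPKM in Control and 3.75 FPKM with LIPUS (0.58). It was 1.51 fold higher in plain FPKM and just under 1.5 fold with 0.1 FPKM added. So 0 of these genes were counted as higher with the pseudocount and 1 without it, beside 8.98% and 8.41% of all genes. Tubb3, a neuronal tubulin, had 0.687 and 1.02 FPKM (0.51), and Dcx, a microtubule protein of young neurons, was listed at 0. Of 4 genes known as SoxF targets, Vcam1, an adhesion molecule, had 12.1 and 13.4 FPKM (0.14), and the other 3 were listed at 0.

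The label of an osteocyte-like line was checked against marker genes, since Sox genes mark several cell types. Of 8 osteocyte markers, 4 passed the filter: Pdpn with 295.4 FPKM in Control and 401.7 FPKM with LIPUS, Cd44 with 200.2 and 211.9, Gja1 with 176.5 and 169.7, and Dmp1 with 3.04 and 7.65. Sost, Fgf23 and Mepe, which mark mature osteocytes, were listed at 0 in both groups, and Phex was listed at 0 in Control with 0.190 FPKM in LIPUS. The summed level of the list was 675 FPKM in Control and 791 FPKM with LIPUS. Of 7 chondrocyte markers, 3 were above 0 and summed to 19.0 and 21.2 FPKM, and Acan, Col9a1, Matn1 and Cnmd were at 0. Of 7 endothelial markers, only Pecam1 was above 0, with 0.496 FPKM in Control and 0 in LIPUS. Of 7 Schwann cell and melanocyte markers, 6 were above 0 but only S100b passed, with 17.2 FPKM in Control and 28.4 FPKM with LIPUS (0.72). That list summed to 17.8 and 29.9 FPKM, and its defining factor Sox10 was at 0. Of 7 immune cell markers, Cd68 had 5.32 and 1.72 FPKM, Lyz2 had 2.01 and 0.189 FPKM, and the other 5 were at 0, with sums of 7.33 and 1.91 FPKM. The part of these differences in the level of Sox9 was not tested.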

How the data were processed

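RNA of 3 LIPUS and 3 Control cultures of MLO-Y4 cells was sequenced as stranded mRNA libraries with paired reads of 100 bases. Per the submitters' processing notes, Trimmomatic 0.36, TopHat2 2.1.0, Bowtie2 2.2.6.0, Cufflinks 2.1.1 and Cuffdiff were used with GRCm38. The authors deposited 1 FPKM per group and gene, pooled over 3 libraries, and a status of tested or not tested. The table also holds the authors' log2 fold change, test statistic, p-value and q-value, which were not used. Counts and values of single libraries were not used here, so the depth behind an FPKM could not be computed (the methods state a round number of reads per sample), and neither an SD nor a test was computed. The study's text says that the experiment was done 3 times independently and calls the 3 RNA samples of a group independent. Its methods, however, except the sequencing from the experiments that were repeated. As these statements differ, the spread between libraries may be partly technical.

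Genes reaching 1 FPKM in either group were kept, 0.1 FPKM was added for log2 ratios, and 1.5 fold counted as higher or lower. Named are the 9 members, every other Sox gene with at least 1 FPKM and list genes past 1.5 fold. Also named are the most abundant gene of a list and neighbours of the members. The nearest genes of Sox5, Sox4, Sox11 and Sox18, all listed at 0, were not named under this rule. Other list genes, the pathway and marker genes at 0, and Sox15 and Sox30 fall outside this rule and were named after their values were seen. The members and gene lists were chosen with earlier results of these data known. 1 cofactor gene is not reported here and was left out of its list. Gene positions and transcript sequences came from GENCODE M21, in which 99.7% of the table's genes were found. HMG box starts were located by translating the coding sequence. Sequences of proteins and promoters were not used here.

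Python 3.11.15 with numpy 2.4.6, pandas 2.3.3, matplotlib 3.10.9 and biopython 1.88 was used. The ratio and counting steps were tested on simulated data in which 200 genes were changed. The alternatives tried were other pseudocounts (1 and none), other minimum FPKM values (none and 10), centring on the median, equal FPKM totals, a fold of 2 and a fold below 1.5.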

Additional observations from a re-analysis of the deposited data

How the results depend on the processing

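No paired analysis was possible because the table holds 1 pooled value per group. For the same reason no library could be left out, and the depth of each library, which limits the low genes, could not be computed from FPKM. Of the alternative values computed, 141 stayed close to the reported ones and 18 moved. Counts within 1.5 fold of each other were taken as close, as were counts that stayed at 0 in short lists. Sox9, the only member ratio past 1.5 fold, kept its sign, and ratios of single list genes were not followed. With equal FPKM totals, Sox5 (-0.01) and the median of the cartilage genes (-0.03) changed sign near 0. The log2 ratio of Sox9 ranged from 0.56 to 0.61. Because Sox9 lies so near 1.5 fold, the number of members higher was 0 with equal FPKM totals (0.56). At a fold of 2, a cut well above the ratio of Sox9, it was 0 as well. The number of members lower was 1 (Sox13, -0.59) with no pseudocount and 1 at the fold below 1.5. The median of the members was 0.32 at a minimum FPKM of 10, where only Sox9 and Sox5 are left. Sox13 moved to -0.27 with a pseudocount of 1. Among cartilage genes, 1 was higher with a pseudocount of 1, 4 with no filter (with 1 lower, Matn3, at 0.609 and 0.0749 FPKM) and 0 at a minimum of 10 FPKM. With no filter 1 cofactor, Barx2, was lower, at 0.105 FPKM and listed at 0 with LIPUS. At the minimum of 10 FPKM, 0 cofactors were higher and the hypertrophic and osteoblast genes had 1 higher and 2 lower. Equal totals shifted the median of all genes by -0.05, with 993 higher and 1248 lower.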

Other observations

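The surroundings of the Sox genes gave further values, none with a test. Sox9 lies alone: the nearest protein-coding genes of the annotation are Slc39a11, a zinc transporter 457093 bases away, with 19.2 FPKM in Control and 20.3 FPKM with LIPUS (log2 ratio 0.08), and Kcnj2, a potassium channel 1705403 bases away, listed at 0 in both groups. The noncoding gene BC006965, which starts 248 bases from Sox9 on the opposite strand and runs away from it, was listed at 0 in both groups. Nearest to Sox5 on the coding side was Bcat1, an enzyme of branched-chain amino acid breakdown, 211858 bases away, with 84.3 FPKM in Control and 66.4 FPKM with LIPUS (-0.34). Near Sox12, Zcchc3 had 1.08 and 0.818 FPKM. Sox6 was listed at 0 although 1110004F10Rik, which starts 601 bases from it on the opposite strand, had 44.1 and 39.8 FPKM (-0.15). Sox8 was listed at 0 while Lmf1, a lipase maturation factor 8399 bases away, had 14.4 and 12.8 FPKM. The antisense gene 2810468N07Rik, which overlaps Sox8, was listed at 0 in Control and had 0.181 FPKM with LIPUS.

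Of the genes near members listed at 0, Tcea2, a transcription elongation factor 8670 bases from Sox18, had 2.67 FPKM in Control and 1.08 FPKM with LIPUS (-1.23). Cmpk2, a mitochondrial nucleotide kinase 854427 bases from Sox11, had 7.67 and 3.42 FPKM (-1.14), and Dcdc2c, 1095221 bases away on the other side, had 0.510 and 2.52 FPKM, higher with LIPUS. Snrpe near Sox13 and Cdkal1 near Sox4 had log2 ratios of 0.11 and 0.19. Next to Sox13, Etnk2 was listed at 0 in both groups, and next to Sox4, Gm26735, which overlaps it, was listed at 0 as well. The 9 noncoding genes named for a Sox gene, among them Sox6os, Sox5it, Sox1ot and Sox2ot, were all listed at 0 in both groups.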
